A study of Mus musculus with 10 samples.

Results

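Cells show fragments of their own proteins on MHC class I molecules, and 9 genes that make or load those fragments are described here across sorted mouse lung epithelial cells: B2m, Tap1, Tap2, Tapbp, Erap1, Psmb8, Psmb9, Psmb10 and Nlrc5. They were chosen by name, and all 9 were measured among the 22180 genes that had a probe set annotated with a single symbol. Where a gene had several such probe sets, the one with the highest mean over all 10 arrays stood for it. Arrays were grouped by their titles into 5 labelled Axin2+ and 5 labelled SP-C+.

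Axin2+ cells came from Axin2CreERT2-TdTom mice, in which a tamoxifen-dependent Cre driven by the Wnt feedback gene Axin2 switches on a red reporter. They were sorted as positive for TdTomato and the epithelial protein EpCAM and negative for CD31 and CD45, the endothelial and leukocyte surface proteins. SP-C+ cells came from SftpcCreERT2-R26REYFP mice, in which the surfactant protein C gene drives the Cre, and were sorted for YFP after 24 h of lineage tracing. Both were labelled type 2 alveolar epithelial cells (AEC2s) from lungs at postnatal day 4, and the strain background was mixed (C57BL/6, 129S6 and CD-1). The comparison asks how AEC2s carrying a Wnt-response label differ from AEC2s as a whole, but each population had its own mouse line, reporter and gate, which cannot be told apart from the cell label.

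Class I molecules consist of a heavy chain and the small invariant chain beta-2 microglobulin, the product of B2m. The proteasome cuts cytosolic proteins into peptides, and interferon replaces its catalytic subunits with those encoded by Psmb8, Psmb9 and Psmb10, which changes where it cuts. Tap1 and Tap2 form the transporter that carries peptides into the endoplasmic reticulum, Tapbp (tapasin) holds empty class I molecules beside that transporter, and Erap1 trims the peptides to length. Nlrc5 is the transactivator that, with Rfx5 and its partners, drives many genes of this set. In the lung, AEC2s respond to interferons and can present antigen, so this machinery has been studied in them as well as in leukocytes.

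Psmb9, Tap1 and Tapbp were modestly higher in Axin2+ arrays, and the other 6 genes did not pass the test. The 3 genes were 1.46-fold, 1.39-fold and 1.30-fold higher, and 0 of the 9 genes was called lower in limma (4 had an unadjusted p under 0.05, all of them higher: these 3 and B2m). For comparison, 8.61% of all 22180 genes were called higher and 8.95% lower (17.6% in either direction). In both groups 7 of the 9 genes lay above the median gene. When only the brighter 50% of genes were tested, 14.5% were called higher. With each array centred on its median, all genes called lower numbered 4412 and those called higher 1561, against 1985 and 1909 in the uncentred table, and the same number of these 9 genes, 3, passed as higher. Calls are limma's moderated test over all 22180 genes at a Benjamini-Hochberg adjusted p under 0.05, and each difference subtracts the SP-C+ mean from the Axin2+ mean in log2 units, given with limma's standard error (SE). All 3 calls were lost without SP-C+ replicates 1, 2 and 3, which leaves 2 SP-C+ arrays: 0 of the 9 genes passed (adjusted p = 0.102 for Tapbp, 0.153 for Psmb9 and 0.212 for Tap1), and 6.78% of all genes were still called higher. Without SP-C+ replicates 4 and 5 the 3 genes and B2m passed, against 9.57% of all genes called higher, and with a covariate for Y-linked expression (the mean of Eif2s3y, Kdm5d and Uty) Psmb9 and Tapbp passed, against 7.28%.

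The AEC2 label was set against marker genes. Of 25 AEC2 markers, all lay above the median gene on the arrays of both groups, and 6 were lower and 0 higher in Axin2+ arrays (list median -0.18). Among all genes 8.95% were called lower and 8.61% higher. Axin2+ arrays also carried markers of other epithelial cells: 25 of 25 markers of type 1 alveolar cells (AEC1s) were higher, with list means of 11.10 to 11.51 in Axin2+ arrays and 8.97 to 9.51 in SP-C+ arrays. Of 26 ciliated cell markers 22 were higher and 1, Ccno, lower, with list means of 8.07 to 8.32 in Axin2+ arrays and 5.91 to 6.04 in SP-C+ arrays. Of 13 club and secretory cell markers 6 were higher and 0 lower, with list means of 7.01 to 7.55 in Axin2+ arrays and 6.47 to 6.74 in SP-C+ arrays. Scgb1a1, the secretoglobin that marks club cells, was 6.64-fold higher. The part of these 3 cell types in the differences of the class I genes was not tested, and in sorted populations of this kind more cells of a type and more RNA per cell cannot be told apart.

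Leukocytes express the class I machinery strongly, so their markers stand beside these results. Of 30 leukocyte markers 1 was higher (Csf1r, 5.67-fold) and 3 were lower (Spi1, Mrc1 and Adgre1) in Axin2+ arrays, against 8.61% and 8.95% of all genes. The list median was -0.19, and the list means overlapped, at 5.46 to 5.68 in Axin2+ arrays and 5.56 to 5.95 in SP-C+ arrays. Ptprc, which encodes CD45, measured 3.81 to 4.24 in Axin2+ arrays and 3.97 to 4.81 in SP-C+ arrays, at the 13.8 and 17.4 percentiles of genes in Axin2+ and SP-C+ arrays. SP-C+ replicate 1 stood apart in endothelial markers, with a mean of 7.40 over 15 genes against 6.31 to 6.86 in the other SP-C+ arrays and 6.43 to 6.62 in Axin2+ arrays. It was also the highest SP-C+ array for 15 mesenchymal markers, at 6.61 against 6.00 to 6.22 in the others of its group. The same held for leukocyte markers (5.95 against 5.56 to 5.71) and AEC1 markers (9.51 against 8.97 to 9.05). Without that array Psmb9, Tapbp and Tap1 still passed (adjusted p = 0.0191, 0.0216 and 0.0333).

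The sequences around the start sites of the genes that rose are shown because 2 of those genes share one promoter. Psmb9 and Tap1 start back to back on opposite strands, 225 bases apart in the RefSeq annotation of GRCm38.p6 at chr17:34187331-34187555, and in the gene order Psmb8 and Tap2 come next after Tap1. The bases between the starts are given on the plus strand, which is the strand of Tap1. The 150 bases before the start of Tapbp (chr17:33919328-33919477, plus strand) and of B2m (chr2:122147537-122147686, plus strand) follow, the second as a member that did not pass. Capitals mark matches to 4 short motifs on either strand: the CCAAT box (CCAAT), the GC box (GGGCGG), the core of the interferon-stimulated response element or ISRE (GAAA and GAAA with any 2 bases between them), and the STAT site called GAS (TTCNNNGAA).
Psmb9 to Tap1: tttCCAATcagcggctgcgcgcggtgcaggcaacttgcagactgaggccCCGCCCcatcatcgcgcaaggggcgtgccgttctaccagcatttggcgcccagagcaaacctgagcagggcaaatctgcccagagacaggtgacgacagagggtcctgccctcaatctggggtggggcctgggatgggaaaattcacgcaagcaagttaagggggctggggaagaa
Tapbp: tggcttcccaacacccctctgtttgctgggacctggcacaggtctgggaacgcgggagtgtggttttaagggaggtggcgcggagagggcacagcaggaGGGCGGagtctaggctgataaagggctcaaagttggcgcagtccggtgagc
B2m: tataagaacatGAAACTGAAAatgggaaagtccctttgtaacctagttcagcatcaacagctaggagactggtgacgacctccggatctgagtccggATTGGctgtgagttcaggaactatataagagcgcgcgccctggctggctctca

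The same 4 motifs were looked for from 250 bases before to 50 after the start in the 7 members with a RefSeq promoter, and in all 32851 promoter windows of the table. The window between Psmb9 and Tap1 holds 1 CCAAT box and 1 GC box, which count for both genes, and Tapbp holds 2 CCAAT boxes, both further upstream than the bases shown, and 1 GC box. These are common letters: 37.4% of all windows held a CCAAT box and 35.7% a GC box. The ISRE core was found in 3.44% of all windows, and among the members in B2m, at bases -139 to -130, and across the start of Erap1. The GAS letters were found in 8.30% of all windows and in 1 member, Psmb8, at bases -97 to -89. Tap2 and Nlrc5 had no window to search. A match is only a match of letters, and no binding was measured. The 3 sites are given on the strand of their gene, with the matched bases in capitals.
B2m ISRE core: agaacatGAAACTGAAAatgggaa
Erap1 ISRE core: ccttcacTTTCACTTTCggtcccg
Psmb8 GAS: tccgctgTTCCCAGAAgatgccc

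Psmb9 encodes the immunoproteasome subunit that takes the place of the caspase-like subunit. It measured 6.45, 6.31, 6.49, 6.54 and 6.93 in Axin2+ replicates 1 to 5, and 5.74, 5.86, 6.03, 6.07 and 6.25 in SP-C+ replicates 1 to 5. The groups did not overlap, but the lowest Axin2+ array and the highest SP-C+ array lay close together. The difference was 0.55 ± 0.12 (SE, n = 5 each; limma adjusted p = 0.00791), with a 95% interval of 0.28 to 0.82, the largest difference of the 9. Its signal lay at the 51.7 percentile of genes in Axin2+ arrays and the 45.6 percentile in SP-C+ arrays, and it was left out where only the brighter 50% of genes were kept.

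Tap1, the gene on the other side of that start region, measured 8.80, 8.65, 8.53, 8.50 and 8.96 in Axin2+ replicates 1 to 5, and 7.87, 8.08, 8.29, 8.34 and 8.46 in SP-C+ replicates 1 to 5. Again the groups did not overlap, and only a small gap separated the highest SP-C+ array from the lowest Axin2+ array. The difference was 0.48 ± 0.12 (SE, n = 5 each; limma adjusted p = 0.0172, 95% interval 0.21 to 0.75). With Y-linked expression as a covariate it was 0.44 ± 0.13 and did not pass (adjusted p = 0.0513).

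Tap2 encodes the other chain of the transporter. It measured 6.80, 6.50, 6.60, 6.51 and 6.88 in Axin2+ replicates 1 to 5, and 6.33, 6.49, 6.53, 6.50 and 6.61 in SP-C+ replicates 1 to 5. The groups overlapped, with 2 Axin2+ arrays above every SP-C+ array. The difference of 0.16 ± 0.09 did not pass (adjusted p = 0.279 in limma), and its interval, -0.04 to 0.36, includes differences up to 1.29-fold. Whether the 2 chains of the transporter differed in their change was not tested.

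Tapbp measured 10.30, 10.23, 10.49, 10.36 and 10.55 in Axin2+ replicates 1 to 5, and 9.80, 9.98, 10.11, 10.101 and 10.06 in SP-C+ replicates 1 to 5. Every Axin2+ array lay above every SP-C+ array. The difference was 0.37 ± 0.09 (SE, n = 5 each; limma adjusted p = 0.0107, 95% interval 0.18 to 0.57). A further probe set named Tapbp alone differed by 0.36 ± 0.10 and passed over all probe sets (adjusted p = 0.0441), at 7.67 ± 0.06 in Axin2+ and 7.31 ± 0.20 in SP-C+ arrays (SD, n = 5 each). A probe set shared by Tapbp and its neighbour Zbtb22 ran the other way without passing (-0.25 ± 0.10, adjusted p = 0.170).

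B2m measured 12.76, 12.72, 12.79, 12.72 and 12.99 in Axin2+ replicates 1 to 5, and 12.57, 12.46, 12.44, 12.73 and 12.61 in SP-C+ replicates 1 to 5. SP-C+ replicate 4 reached the range of the Axin2+ arrays, so the groups overlapped. The difference of 0.23 ± 0.08 did not pass (adjusted p = 0.0767 in limma; unadjusted p = 0.0162), and its interval was 0.05 to 0.41. It passed without SP-C+ replicate 4 (0.27, adjusted p = 0.0426), without SP-C+ replicates 4 and 5 (0.30, adjusted p = 0.0365), among the brighter 50% of genes (adjusted p = 0.0401) and with an intensity trend and robust variances (adjusted p = 0.0354). Of all genes, 14.5% of the brighter 50% were called higher and 8.8% with the trend and robust variances.

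Psmb8 encodes the immunoproteasome subunit that takes the place of the chymotrypsin-like subunit. It measured 6.53, 6.48, 6.60, 6.67 and 7.08 in Axin2+ replicates 1 to 5, and 6.26, 6.33, 6.68, 6.46 and 6.33 in SP-C+ replicates 1 to 5. SP-C+ replicate 3 lay above 4 of the Axin2+ arrays. The difference of 0.26 ± 0.12 did not pass (adjusted p = 0.178 in limma), with an interval from just under 0 to 0.52.

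Psmb10, for the subunit that takes the place of the trypsin-like one, spread widely in both groups. It measured 8.54, 8.48, 8.27, 8.35 and 8.87 in Axin2+ replicates 1 to 5, and 8.12, 8.19, 8.46, 8.71 and 8.33 in SP-C+ replicates 1 to 5. Only 1 Axin2+ array lay above every SP-C+ array. The difference of 0.14 ± 0.13 did not pass (adjusted p = 0.538 in limma), and its interval was -0.15 to 0.43.

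Erap1 varied least of the 9 genes within Axin2+ arrays. It measured 9.03, 9.04, 8.99, 8.92 and 8.93 in Axin2+ replicates 1 to 5, and 8.80, 8.63, 8.91, 8.96 and 8.93 in SP-C+ replicates 1 to 5. The groups overlapped at their inner ends, where SP-C+ replicates 4 and 5 reached the lowest Axin2+ arrays. The difference of 0.13 ± 0.08 did not pass (adjusted p = 0.298 in limma; interval -0.04 to 0.31).

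Nlrc5 was the only member with a difference below 0. It measured 5.14, 5.31, 4.99, 5.21 and 5.75 in Axin2+ replicates 1 to 5, and 5.38, 5.13, 5.30, 5.49 and 5.44 in SP-C+ replicates 1 to 5. The Axin2+ arrays enclosed the whole SP-C+ range. The difference of -0.06 ± 0.13 did not pass (adjusted p = 0.796 in limma), and its interval of -0.35 to 0.22 includes changes of up to 1.16-fold upward and down to 0.787 of the SP-C+ level. Its signal lay at the 33.8 percentile of genes in Axin2+ arrays and the 35.1 percentile in SP-C+ arrays.

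**Figure D1:**
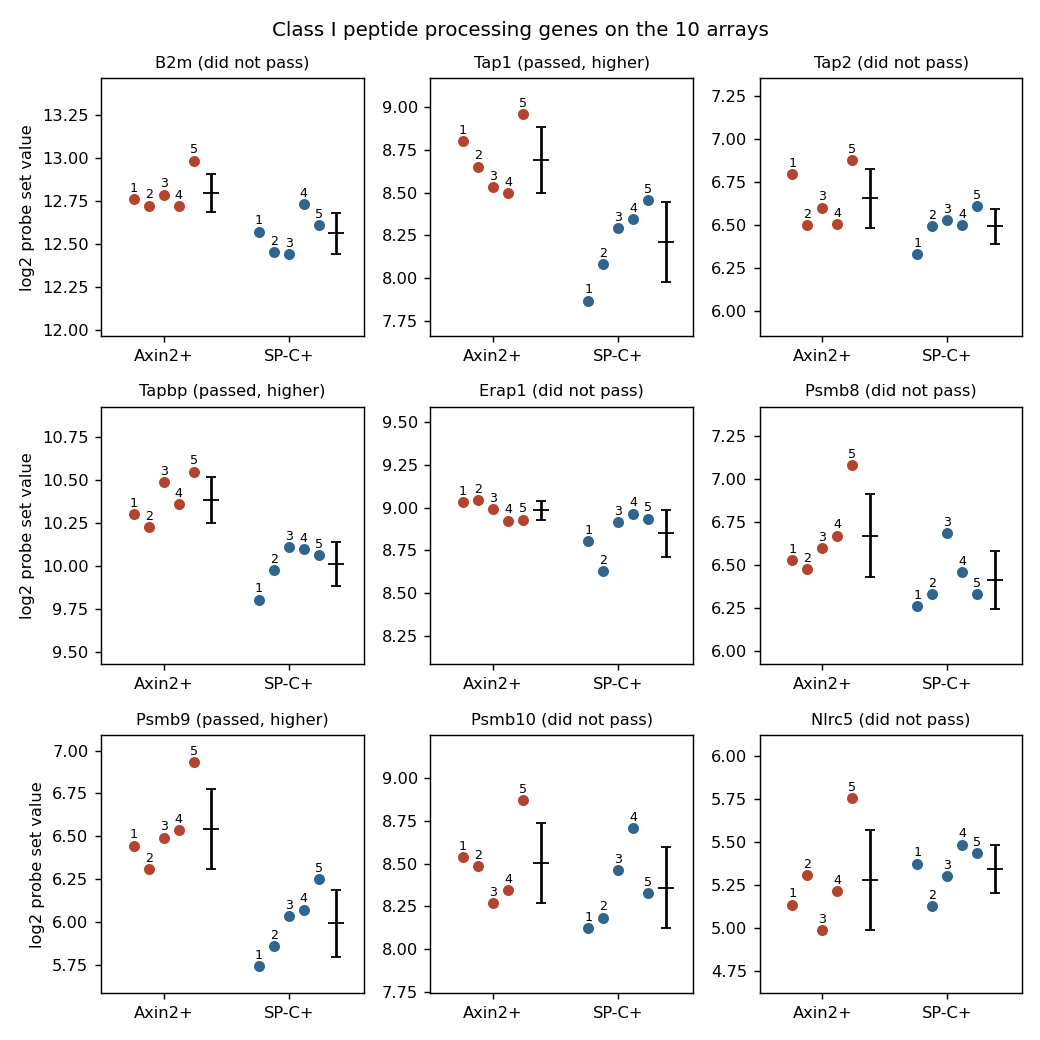
Log2 probe set values of the 9 genes on the 5 Axin2+ (left, red) and 5 SP-C+ (right, blue) arrays, each panel spanning the same height on the log2 scale; numbers are replicates, and the black bar gives mean ± SD (n = 5). Psmb9, Tap1 and Tapbp are the panels in which the groups do not overlap, and Axin2+ replicate 5 is the highest array of its group in 8 of the 9 panels.

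Groups did not overlap in those 3 genes, against 7.38% of all genes separated in the same direction and 7.66% in the other (15% in all). Differences were above 0 in 8 of the 9 genes and below 0 in 1, the median was 0.23, and none reached 2-fold; over all genes the median was -0.04 and 39.9% lay above 0. In size, 5.83% of all genes had a larger difference than Psmb9 and 8.58% a larger one than Tapbp. These genes were picked as a known pathway with earlier results of these arrays in view, so the counts describe them and do not test them as a set.

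**Figure D2:**
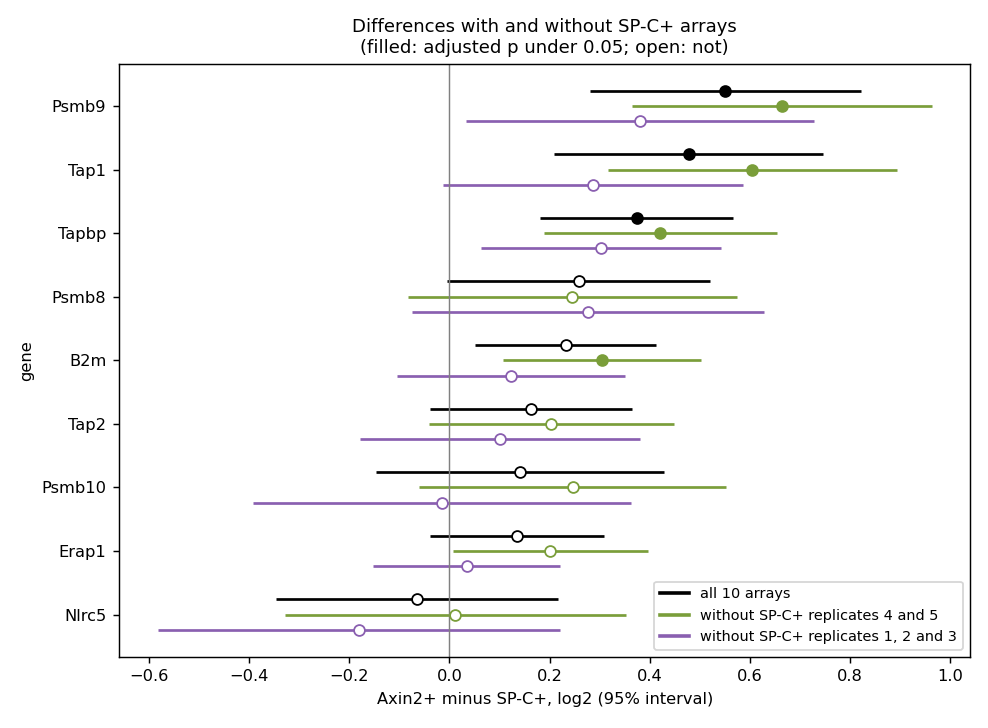
Axin2+ minus SP-C+ differences on the log2 scale with 95% intervals, from all 10 arrays (black), without SP-C+ replicates 4 and 5 (green) and without SP-C+ replicates 1, 2 and 3 (purple); filled points passed the adjusted p threshold of 0.05 and open points did not. Psmb9, Tap1 and Tapbp are at 0.38, 0.29 and 0.30 in the purple fit, where none of the 9 genes passes. Their groups do not overlap, so leaving out arrays could not turn their sign.

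Single arrays moved several members at once. Axin2+ replicate 5 was the highest Axin2+ array for 8 genes, Erap1 being the exception, and averaged 0.40 above the genes' own means against 0.04 to 0.11 in the other Axin2+ arrays. SP-C+ replicates 1 and 2 averaged -0.28 and -0.25, while SP-C+ replicates 3, 4 and 5 averaged between -0.07 and 0.00. Replicate 1 was the lowest SP-C+ array for 6 genes. The mean of SP-C+ replicates 4 and 5 lay above that of replicates 1, 2 and 3 in 8 genes, Psmb8 being the exception; for Tap1 these means were 8.40 and 8.08, and for Psmb9 6.16 and 5.88. Without Axin2+ replicate 5 the differences of Psmb9, Tap1 and Tapbp were 0.45, 0.41 and 0.33, and all still passed (adjusted p = 0.0144, 0.0444 and 0.0310).

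**Figure D3:**
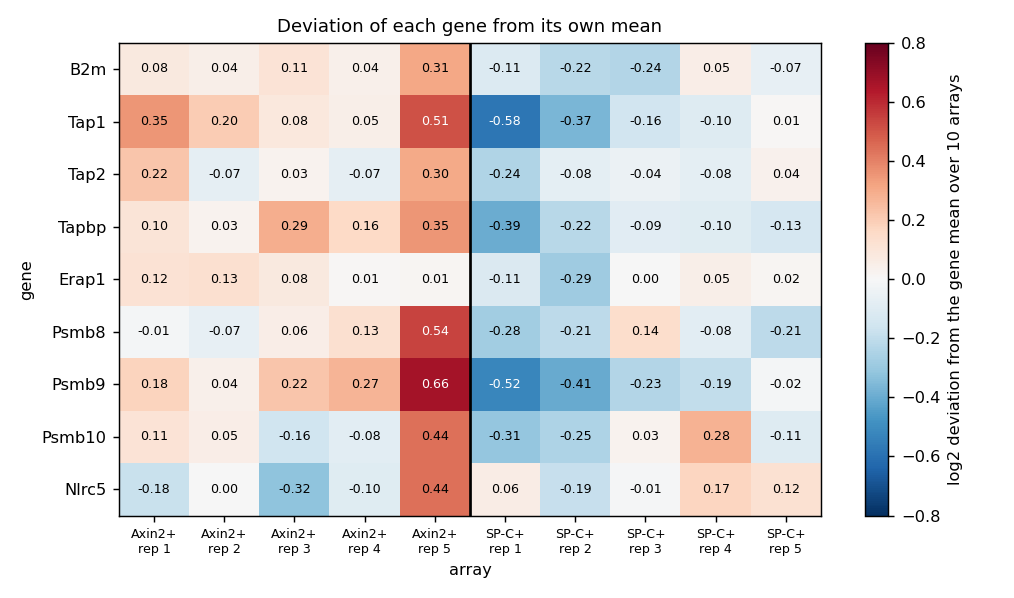
Deviation of each gene (rows) on each array (columns, Axin2+ left of the line and SP-C+ right) from its own mean over the 10 arrays, on the log2 scale, red above and blue below. The column of Axin2+ replicate 5 is above the mean for all 9 genes, and SP-C+ replicates 1 and 2 are below it for 8 and 9 of them.

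Genes with the most similar pattern were sought by the root mean square difference of deviations from the own mean over the 10 arrays, among 19234 other named genes. Tap1 and Psmb9, the pair with the shared start region, came close to each other: Tap1 was the 5th nearest gene to Psmb9 and Psmb9 the 9th nearest to Tap1, at a root mean square difference of 0.13. For comparison, the deviations of Psmb9 and Tap1 themselves had a root mean square of 0.34 and 0.31. The nearest genes to Psmb9 were Resp18 (0.08) and Parp12 (0.11), and the nearest to Tap1 were Parp14 (0.10) and Resp18 (0.10). Parp12 and Parp14 encode ADP-ribosyltransferases induced by interferon. The nearest were Tsen54 and Ddx31 for B2m, Prr23a1 and Ifnar1 for Tap2, Ap2a2 and Rtn4ip1 for Tapbp, Coq4 and Gpr37 for Psmb8, Prl2b1 and Cacnb1 for Psmb10, Ghrhr and Olfr1029 for Nlrc5, and Mir3969 and Atp5g2 for Erap1. For these 7 members no fellow member came nearer than Tapbp, in place 20 for Psmb8. The places are a description over arrays that share the group difference.

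The proteasome subunits that Psmb8, Psmb9 and Psmb10 replace did not pass the test. Psmb5, the partner of Psmb8, averaged 11.20 ± 0.05 in Axin2+ arrays against 11.15 ± 0.19 in SP-C+ arrays (SD, n = 5 each) and differed by 0.05 ± 0.09 SE. Psmb6, the partner of Psmb9, differed by 0.20 ± 0.10 and Psmb7, the partner of Psmb10, by 0.07 ± 0.09 (adjusted p = 0.234 to 0.778 for the 3 in limma). Psmb9 gained 0.35 on Psmb6 within arrays, with an exact two-sided permutation p of 0.0317 and an adjusted p of 0.0952 over the 3 pairs, and so did not pass. The within-array difference between these probe sets ran from -2.69 to -2.07 in Axin2+ arrays and from -3.08 to -2.54 in SP-C+ arrays, and the groups overlapped. Psmb8 gained 0.21 on Psmb5 (exact p = 0.206) and Psmb10 gained 0.07 on Psmb7 (exact p = 0.738), neither of which passed. The smallest p that 252 assignments allow is 0.00794.

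Across the constitutive proteasome core 2 of 13 genes were higher and 0 lower, against 8.61% and 8.95% of all genes, at a list median of 0.13. They were Psmb1 (0.28 ± 0.08, adjusted p = 0.0269) and Psmb2 (0.26 ± 0.08, adjusted p = 0.0494), and in both genes the groups did not overlap. These calls were unstable: of 22 other fits Psmb1 did not pass in 10 and Psmb2 in 14, among them the replicate block (adjusted p = 0.0648 and 0.113), median centring, the Y-linked covariate and several fits without 1 array of either group. Among 12 proteasome activator and assembly genes 2 were higher and 0 lower (median -0.01). Pomp, the maturation chaperone that helps build new proteasomes, rose by 0.46 ± 0.10 (adjusted p = 0.00844; 0.110 without SP-C+ replicates 1, 2 and 3), and Ube2l6, the conjugating enzyme for the interferon-induced modifier ISG15, by 0.62 ± 0.14 (adjusted p = 0.00856). The genes of the interferon-induced activator cap did not pass: Psme1 differed by -0.15 ± 0.08 and Psme2 by 0.10 ± 0.09 (adjusted p = 0.268 and 0.504). Under median centring Psme1 was called lower (-0.24 ± 0.08, limma adjusted p = 0.0413).

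Downstream of the proteasome the shares called higher, 10% of peptidase and 7.69% of loading genes, were near the 8.61% of all genes. Of 10 cytosolic and other peptidase genes 1 was higher, Dpp3, a dipeptidyl peptidase (0.30 ± 0.08, adjusted p = 0.0212). It did not pass in 4 of 22 other fits: the replicate block (adjusted p = 0.0536), median centring, and those without Axin2+ replicate 3 or without SP-C+ replicates 4 and 5. Under median centring 3 peptidase genes were called lower and 0 higher, where 4412 of all 22180 genes were called lower and 1561 higher. Of 13 genes for loading chaperones and the protein channel of the endoplasmic reticulum 1 was higher, Bcap31, an export factor of that compartment (0.35 ± 0.10, adjusted p = 0.0347). Bcap31 did not pass in 11 of 22 other fits, among them the replicate block (adjusted p = 0.0603), median centring and 6 fits without a single array. The median of the loading list was 0.02 and that of the peptidase list 0.10.

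Of 16 measured class I and class I-like heavy chain genes 2 (12.5%) were higher and 0 lower, against 8.61% and 8.95% of all genes. Mr1, whose product presents vitamin B metabolites to mucosal T cells, averaged 8.87 ± 0.14 in Axin2+ and 5.95 ± 0.39 in SP-C+ arrays (SD, n = 5 each), a rise of 2.91 ± 0.16 SE or 7.54-fold (adjusted p = 5.13e-08 in limma). H2-M3, which presents formylated peptides, rose by 0.51 ± 0.09 (adjusted p = 0.00121). The classical heavy chain gene H2-K1, named here after its values were seen, averaged 11.12 ± 0.08 in Axin2+ arrays against 11.09 ± 0.09 in SP-C+ arrays and differed by 0.03, with an interval of -0.13 to 0.19 (adjusted p = 0.850). The list median was -0.05. Class I genes are near copies of each other, so a probe set can read more than 1 of them, and 9 of the 25 heavy chain names, H2-D1 among them, had no probe set with a single symbol and were not analysed here.

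Of 29 regulators of the class I genes 3 (10.3%) were higher and 3 lower, at a median of 0.01. These counts were near the shares over all genes, 8.61% higher and 8.95% lower. Rfx5, which encodes the DNA-binding part of the factor that Nlrc5 joins, rose by 0.44 ± 0.08 (adjusted p = 0.00144), while Rfxap, for a partner subunit of that factor, fell by 0.34 (SE 0.08, adjusted p = 0.00727). Usp18, an interferon-induced brake on the interferon receptor, rose by 1.99 ± 0.15 and Ifnlr1, a receptor chain for type III interferon, by 0.36 ± 0.08. Irf8 and Socs1, a transcription factor and an inhibitor of cytokine signalling, were at -0.50 ± 0.16 and -0.42 ± 0.14, just under the threshold (adjusted p = 0.0497 and 0.0487); of 22 other fits Socs1 did not pass in 12 and of 21 Irf8 did not pass in 13, and without SP-C+ replicates 1, 2 and 3 they were at -0.14 and -0.11. The list had 1 lower gene without SP-C+ replicates 1, 2 and 3 and 6 without replicates 4 and 5. Of all 22180 genes, 1335 and 2177 were called lower in those fits. Irf1, which binds promoters of this set, differed by 0.03 ± 0.17 and did not pass (adjusted p = 0.939 in limma). Ciita, the class II counterpart of Nlrc5, differed by 0.29 ± 0.23 and did not pass on all 10 arrays (adjusted p = 0.453). Without SP-C+ replicates 4 and 5 Ciita passed as higher (0.68 ± 0.16, adjusted p = 0.0115). Without SP-C+ replicates 1, 2 and 3 it was at -0.29 ± 0.19 and did not pass (adjusted p = 0.402).

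The response genes of both interferon types give the setting of these values. Of 26 genes typical of type I interferon 14 were higher and 0 lower at a median of 0.40, against 8.61% and 8.95% of all genes. The list means were 6.44 to 6.79 in Axin2+ arrays and 5.90 to 6.04 in SP-C+ arrays. Ifit2 rose by 2.41 ± 0.18 and Oasl2 by 2.04 ± 0.27. Of 18 genes typical of interferon gamma 0 passed in either direction in limma (1, Igtp, had an unadjusted p under 0.05), at a median of 0.17. Only 3 of these 18 lay above the median gene in Axin2+ arrays and 4 in SP-C+ arrays, so most were read at low signal. For the 26 type I genes these counts were 14 and 10, so the 2 lists are not compared at like signal. The mean of the interferon gamma list was 6.37 in Axin2+ replicate 5, against 5.54 to 5.62 in the other Axin2+ arrays and 5.51 to 5.75 in SP-C+ arrays. Replicate 5 was also the highest Axin2+ array for 8 of the 9 processing genes. Of 10 MHC class II genes 4 were higher, H2-Ab1 and H2-Eb1 (2.20 each) with H2-Aa and H2-DMb2, and 1, H2-Ea, was lower (-2.17). Their list means, 7.51 to 7.88 in Axin2+ arrays, were 6.52 to 7.02 in SP-C+ replicates 1, 2 and 3 and 7.50 and 7.53 in replicates 4 and 5, and those 2 arrays were also the highest SP-C+ arrays for Tap1 and Psmb9. Without SP-C+ replicates 1, 2 and 3 the class II list had 2 genes higher, 2 lower and a median of 0.10 against 0.58. In that fit 1504 of all 22180 genes were called higher and 1335 lower. The difference of H2-Ab1 there was 0.93 ± 0.22 (limma adjusted p = 0.0259). The part of these responses in the class I differences was not tested.

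**Figure D4:**
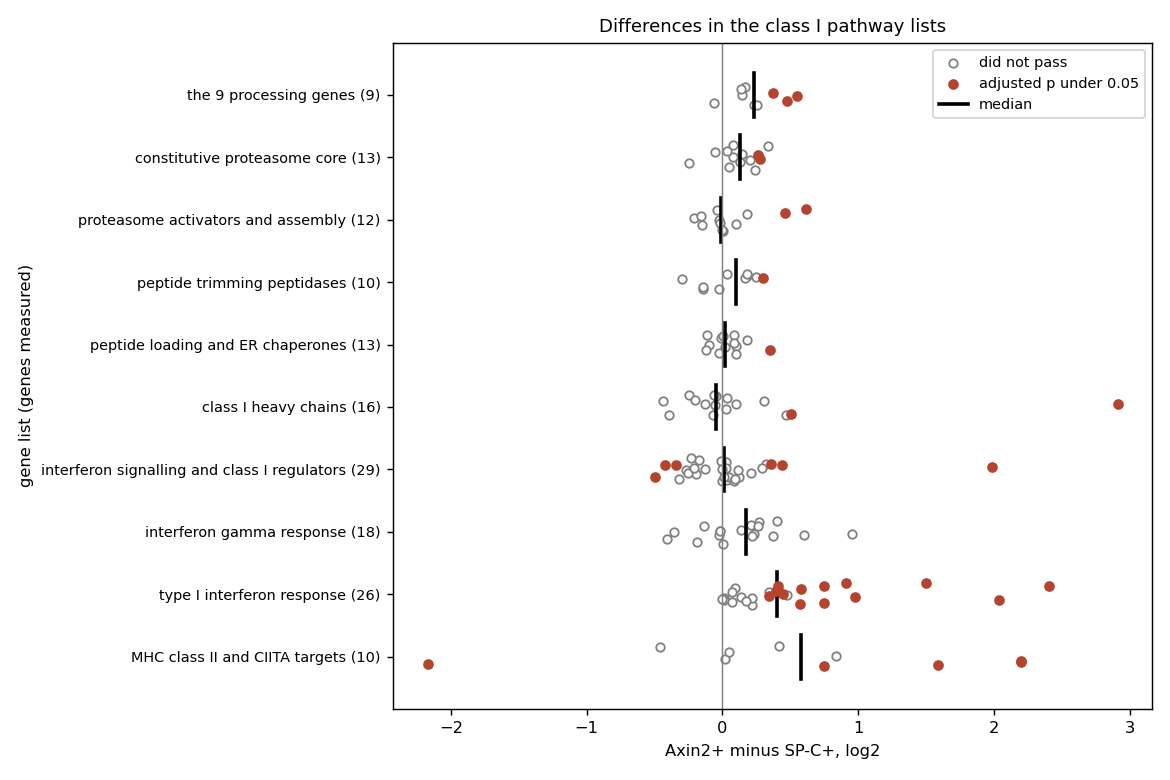
Axin2+ minus SP-C+ differences on the log2 scale of every measured gene of each list (points), with list medians as black bars; red points passed at an adjusted p under 0.05. The 9 processing genes lie between -0.06 and 0.55, with a median of 0.23. The type I interferon genes have a median of 0.40 and reach 2.41, and Mr1 among the heavy chains is at 2.91. Medians are 0.13 for the proteasome core, -0.01 for its activators and assembly, 0.10 for peptidases and 0.02 for loading chaperones.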

How the data were processed

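RNA of sorted cells was labelled with biotin after linear amplification and read on Affymetrix arrays, per the labels' protocols. The deposited table holds log2 values that the authors had already normalized; per the submitters' processing notes oligo, RMA and limma were used, without versions or roles. The log base is not stated, and 2 was inferred from values spanning 1.69 to 14.16. Array medians were 5.89 to 5.97. Symbols came from the platform annotation: 23521 probe sets had 1 symbol, 1814 several and 16010 none. The number of arrays limits the precision.

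The main test was two-sided and without covariates, by lmFit and eBayes of limma (version 3.58.1, R 4.3.3). Alternatives changed the scaling (quantile, median), the genes kept (signal above the 25 or 50 percentile), the probe sets (a mean per gene, or every one), the variances (trend with robust fit, array weights), the threshold (0.01) or the arrays (each left out in turn), or added a replicate block. Fits without SP-C+ replicates 1, 2 and 3, without 4 and 5, or with a covariate of 3 Y-linked genes were chosen after seeing the data. Members, gene lists and tests were chosen with earlier results of these data known. Beyond the members, the text names up to 2 called rises and 2 called falls of each pathway list, regulators and partners fixed by name, and the 2 genes most similar to each member. Rfxap, Ifnlr1, Igtp, H2-Aa, H2-DMb2, H2-K1 and the single cell type markers fall outside this rule and were chosen after their values were seen. Of 318 listed names 296 matched a measured gene, 2 by synonym. No label says that replicates are separate animals, so p-values measure the spread between these samples, which may be technical.

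Tested on simulated data with the 22180 genes of this comparison, 200 of them changed, the fit recovered 58% of changes of 0.5 on the log2 scale and 96% of changes of 1, and 6.84% of its calls were false. The simulated noise was independent between genes and arrays, and in the real comparison 17.6% of genes were called. These rates therefore check the code and do not carry over to the real calls. Promoter sequences are RefSeq's, from a table built on GRCm38.p6.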

Additional observations from a re-analysis of the deposited data

Results flagged for a closer look

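Within each group of 5 arrays the highest or lowest array was set against the others, for 33 genes and the 3 proteasome pairs. In 5 of 72 groups it stood apart by Dixon's criterion, of which chance flags about 1 in 20. In 4 of the 5 the array was Axin2+ replicate 5. B2m measured 12.99 there against 12.72 to 12.79 in the other Axin2+ arrays, and Oasl2 8.28 against 6.61 to 6.90. The within-array difference of Psmb8 minus Psmb5 was -4.11 on this array against -4.67 to -4.55 in the others, and that of Psmb9 minus Psmb6 was -2.07 against -2.69 to -2.52. The other case was H2-Eb1 in SP-C+ replicate 4, at 9.48 against 7.69 to 7.91 in the other SP-C+ arrays.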

How the results depend on the processing

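Of 206 member differences recomputed under the alternatives, 196 kept their side of the threshold and 10 did not, and none of those that passed changed sign. Psmb9, Tap1 and Tapbp were above 0 in all 69 of theirs, but this is no test of their direction. Their groups did not overlap, so leaving out arrays could not turn the sign. Fits that changed only the variances, the genes kept, the threshold or the replicate block gave nearly or exactly the main difference again. The number of members called higher was 3 or 4 in each fit that left out 1 array, but 0 without SP-C+ replicates 1, 2 and 3, where fewer arrays were tested, and 1 (Psmb9) at the stricter threshold of 0.01. Median centring gave 4412 genes called lower, and the stricter threshold 919, against 1985. With 1 array left out all genes called higher numbered 1597 to 1950 and those called lower 1377 to 2073. The change of Psmb9 against Psmb6 passed without SP-C+ replicate 5 (0.42, adjusted p = 0.0476) and ranged from 0.25 to 0.42 with 1 array left out; that of Psmb8 against Psmb5 ranged from 0.11 to 0.27 and that of Psmb10 against Psmb7 from -0.03 to 0.19. Over all alternatives, of which those without SP-C+ replicates 1, 2 and 3 and without 4 and 5 set both ends, the ranges were 0.16 to 0.48 for Psmb9, 0.06 to 0.31 for Psmb8 and -0.26 to 0.28 for Psmb10. Same-numbered arrays did not deviate together over all genes (correlations -0.23 to 0.01). No label says that the numbers pair the arrays, and these correlations cannot exclude it. With the replicate block 1608 genes were higher and 1371 lower, the same 3 members passed (Psmb9 at a limma adjusted p of 0.00337), and 0 of 9 were lower.

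Among the lists, counts over the alternatives ranged from 0 to 2 higher in the proteasome core, 1 to 2 in activators and assembly, 0 to 1 in peptidases and in loading chaperones, 1 to 3 in heavy chains, 7 to 15 in the type I interferon list and 2 to 6 in the class II list; lower regulators ranged from 1 to 9, lower leukocyte markers from 0 to 8 and lower AEC2 markers from 2 to 15. Over the same alternatives all genes called higher ranged from 1330 to 2123 and all genes called lower from 919 to 4412. The list counts are to be read beside these totals. Psmb9 and Nlrc5 were not tested among the brighter 50% of genes. The cause of these shifts was not tested.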
